A study of Homo sapiens with 8 samples.

Results

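Glycolysis and the cellular response to low oxygen were examined through 39 genes, of 30386 genes in the deposited table, each matched by its gene symbol. The genes were chosen with earlier results of these data known, so counts over them are descriptions and not tests. They fell into 21 glycolytic enzymes and their regulators, 8 regulators of the hypoxia-inducible factor (HIF) pathway and 10 other genes known to respond to hypoxia. RNA sequencing compared 4 samples of endothelial cells (iEC) with 4 samples of retinal endothelial cells (iREC), each group with replicates lettered C, D, E and F. Both groups were made from WTC-TJP1, a human line of induced pluripotent stem cells, and analysed at passage 1, so every value comes from a single line. The labels give all 8 samples the cell type of stem cell-derived endothelial cells and do not give the steps that lead to iREC. They also do not say whether replicates were separate cultures, so p-values measure the spread between these samples, part of which may be technical.

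Glycolysis splits glucose into pyruvate, and lactate dehydrogenase turns pyruvate into lactate when it does not enter the mitochondria. Endothelial cells are known for drawing much of their ATP from glycolysis, and PFKFB3 for raising its rate when vessels sprout. HIF1A and EPAS1 (HIF-2 alpha) are the oxygen-labile subunits that pair with ARNT. In normal oxygen the prolyl hydroxylases EGLN1, EGLN2 and EGLN3 mark them, and VHL directs them to degradation. This control acts on protein stability, and the values here are messenger RNA levels. In low oxygen the factors bind the sequence ACGTG or GCGTG in their target genes, which include most glycolytic enzymes.

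The libraries held 14877502 to 16971865 counts in iEC and 13739364 to 15987839 in iREC. Levels are given as CPM, counts scaled to a common library size with TMM factors, in the order C, D, E, F within a group. The floor of detection was set at 3 counts, which stood for 0.178 to 0.215 CPM. Over all 15330 genes tested, edgeR called 13.2% higher in iREC and 11.7% lower, shares to be set beside the marker calls below. The endothelial label was checked on 12 endothelial markers. Their summed level was 7699, 9574, 7552 and 8854 CPM in iEC and 7898, 8353, 10268 and 4575 CPM in iREC, so that iREC F was the lowest of the 8. Of the 12, edgeR called 3 higher in iREC, EMCN (log2 fold change 6.68, adjusted p = 4.11e-05), TEK (3.82, 0.0001103) and CLDN5 (0.79, 0.04895). The 5 called lower were PECAM1 (-1.57, 0.000632), ROBO4 (-1.33, 0.00422), EGFL7 (-1.22, 0.00989), ESAM (-0.94, 0.0168) and CDH5 (-0.76, 0.0298). CLDN5 lost its call in every fit that left out a sample except that without iREC F (adjusted p between 0.0597 and 0.134), ESAM without iREC D (adjusted p = 0.0528) and CDH5 without iEC D, iEC E, iEC F or iREC D (adjusted p between 0.06003 and 0.0785). PECAM1 averaged 2233 ± 286 CPM in iEC and 754 ± 175 CPM in iREC (SD). Markers of mural and mesenchymal cells, 13 genes, summed to 109, 117, 162 and 464 CPM in iEC and 1554, 2101, 1334 and 5861 CPM in iREC. Among their 11 tested genes edgeR called 6 higher in iREC and 0 lower, and 0 were lower at an unadjusted p under 0.05 or by DESeq2 or limma-voom. Among these were POSTN (log2 fold change 5.99, adjusted p = 0.00132), LUM (5.80, 0.0333) and CNN1 (4.83, 0.00112), at 5.71, 3.50 and 3.95 without iREC F, where LUM lost its call (0.0739). Without iEC F they were 6.72, 7.44 and 5.30, and 10 mural and mesenchymal genes were called. Epithelial markers, 8 genes, summed to 450.1, 393, 676 and 1177 CPM in iEC and 303, 1124, 426 and 4933 CPM in iREC. KRT7 alone of these was called (log2 fold change 5.05, adjusted p = 0.0258; 4.42 without iREC F and 6.48 without iEC F), and its call was lost without iEC C, iEC D, iEC E or iREC D (adjusted p between 0.0592 and 0.0751). Without iREC C, 3 epithelial markers were called. iREC F thus held the most mural and epithelial marker RNA and the least endothelial marker RNA, and values without it are given where they change the call of one of the 39 genes. Pluripotency markers, 8 genes, summed to 53.96, 41.5, 20.4 and 13.9 CPM in iEC and 59.2, 196, 95.3 and 532 CPM in iREC, again highest in iREC F. Of their 3 tested genes LIN28A (32.4, 14.98, 10.5 and 8.45 CPM in iEC and 20.5, 147, 53.7 and 482 CPM in iREC) and ZFP42 (log2 fold change 3.01, adjusted p = 0.0129) were called higher in iREC. LIN28A was 10.6-fold higher (adjusted p = 0.0242), with a log2 fold change of 2.15 without iREC F, and its call was lost without iEC D, iEC E or iEC F (adjusted p between 0.0542 and 0.0691). NANOG was at 0 in all iEC and TDGF1 in all iREC. Haematopoietic and erythroid markers summed to 26.01, 25.2, 47.9 and 25.7 CPM in iEC and 20.9, 16.1, 17.7 and 19.1 CPM in iREC, with RUNX1 called lower (log2 fold change -0.97, adjusted p = 0.0131). PTPRC was at 0 in all iEC, at 2.75, 1.21, 0.794 and 1.77 CPM in iREC and called higher (log2 fold change 7.65, adjusted p = 0.00243). Of the 7 haematopoietic and erythroid markers matched, only these 2, RUNX1 and PTPRC, were tested. HBE1 was at 0 in all iEC and SPI1 in all iREC. These are bulk samples, in which fewer cells of a type and less RNA per cell cannot be told apart.

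Of the 39 genes, 38 passed the filter on low counts and CA9 did not. At an adjusted p under 0.05 in edgeR's quasi-likelihood test, 18 of the 38 were called different between iREC and iEC, beside 25.0% of all 15330 genes tested. Among the 21 glycolytic genes 3 were called higher in iREC (PFKL, PFKFB2 and PDK1), beside 13.2% of all genes. The 8 called lower (HK1, GPI, ALDOA, GAPDH, ENO1, ENO2, PKM and LDHA) stand beside 11.7% of all genes. Of the 8 HIF regulators 3 were called, all higher in iREC (EPAS1, EGLN3 and HIF3A), and 0 were lower at an unadjusted p under 0.05. Of the 9 tested hypoxia genes CA12 and KDM3A were called higher and NDRG1 and STC1 lower. The median log2 fold change was -0.37 over the glycolytic genes, 0.22 over the HIF regulators and -0.30 over the other hypoxia genes, beside 0.02 over all genes tested. In 18 of the 38 genes the CPM values of the groups did not overlap, beside 29.1% of all genes, and 15 of these were called. The falls among glycolytic enzymes were all under 2-fold, while 7 of the called genes differed by 2-fold or more. The authors' deposited table gave an adjusted p under 0.05 for 19 of the 39 genes, beside 16.3% of its genes. These 19 were the 18 called here and DDIT4, and 0 of the 18 had the opposite sign there.

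**Figure D1:**
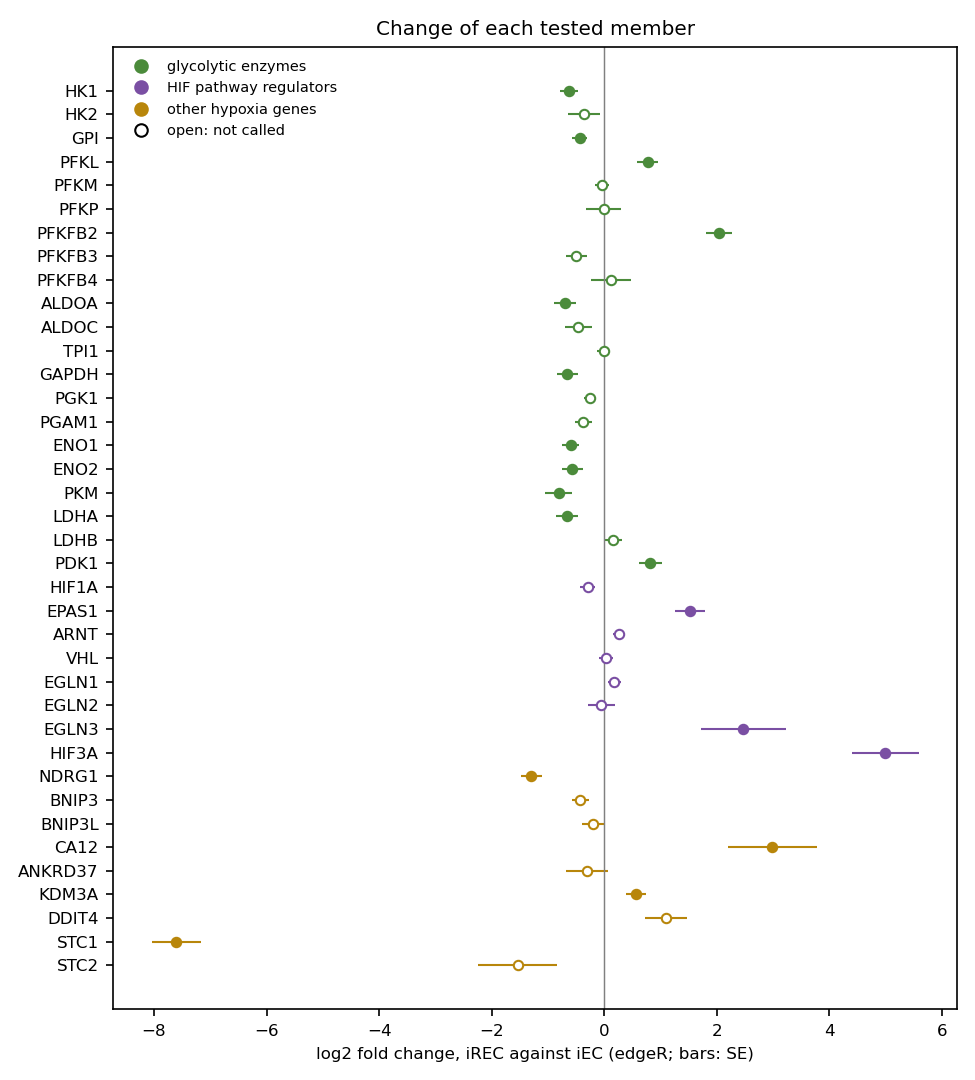
Log2 fold change of iREC against iEC for the 38 tested genes, with standard errors as bars; positive values are higher in iREC. Filled points were called by edgeR at an adjusted p under 0.05, and colours mark the 3 groups of genes. Most glycolytic enzymes lie between -0.81 and 0, with PFKFB2 at 2.04, and STC1 at -7.61 and HIF3A at 5.0 are the most distant from 0.

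Which glycolytic enzymes were called depended on the samples that entered the fit. Leaving out 1 sample lowered the count of called glycolytic genes from 11 to 6 without iEC D, 4 without iEC E, 5 without iEC F, 3 without iREC D and 5 without iREC E, and gave 12 without iREC F. For the other hypoxia genes the count went from 4 to 2 without iEC E, iEC F or iREC D and to 6 without iREC F. Over all genes the same fits called between 2660 (without iREC D) and 4214 (without iREC F), compared with 3829. All 18 called genes kept the sign of their difference in every alternative. The genes PFKFB2, PDK1, EPAS1, HIF3A, NDRG1 and STC1, 6 in all, stayed called in every alternative that tested them.

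Promoter sequences are shown first, because the HIF binding core lies in many of them. Windows from 250 bases before to 50 after a gene's start, from RefSeq on GRCh38.p14, were found for 34 of the 39 genes. They were searched on both strands for ACGTG and GCGTG, and overlapping matches were merged into 1 site. At least 1 site stood in 26 of the 34 windows (76.5%), compared with 48.4% of all 35116 windows in the table. ACGTG alone stood in 14 (41.2%), compared with 21.4% of all windows. Sites were present in windows of genes called in either direction, in 5 of 7 called higher and 7 of 8 called lower. PDK1, EGLN3 and HK1, all called, held 0 sites in this window. A match is a description of these letters and not evidence of binding. No window was found for the called genes PFKFB2, NDRG1 and STC1. The 4 windows printed here belong to the called genes with the most sites among those that had a window. Capitals mark the sites, CACGT and CACGC being the same cores on the opposite strand.
LDHA, chr11:18394313-18394612, plus strand: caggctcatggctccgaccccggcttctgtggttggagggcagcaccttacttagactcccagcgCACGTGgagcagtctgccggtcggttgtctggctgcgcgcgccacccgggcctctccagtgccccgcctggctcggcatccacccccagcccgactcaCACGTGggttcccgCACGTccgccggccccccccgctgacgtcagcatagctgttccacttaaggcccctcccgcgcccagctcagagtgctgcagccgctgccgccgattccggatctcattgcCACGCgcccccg
HIF3A, chr19:46296792-46297091, plus strand: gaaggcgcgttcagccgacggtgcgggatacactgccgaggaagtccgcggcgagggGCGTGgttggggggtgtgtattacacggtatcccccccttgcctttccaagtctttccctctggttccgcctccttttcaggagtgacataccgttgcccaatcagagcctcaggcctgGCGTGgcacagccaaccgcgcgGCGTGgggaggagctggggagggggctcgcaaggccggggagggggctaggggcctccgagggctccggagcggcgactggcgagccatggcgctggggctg
CA12, chr15:63381797-63382096, minus strand: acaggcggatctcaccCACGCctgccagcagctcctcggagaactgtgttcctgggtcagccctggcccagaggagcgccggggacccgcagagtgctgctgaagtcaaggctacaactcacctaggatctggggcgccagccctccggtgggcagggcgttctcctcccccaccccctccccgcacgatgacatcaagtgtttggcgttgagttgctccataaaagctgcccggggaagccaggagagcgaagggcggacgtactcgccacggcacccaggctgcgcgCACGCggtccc
ENO1, chr1:8878637-8878936, minus strand: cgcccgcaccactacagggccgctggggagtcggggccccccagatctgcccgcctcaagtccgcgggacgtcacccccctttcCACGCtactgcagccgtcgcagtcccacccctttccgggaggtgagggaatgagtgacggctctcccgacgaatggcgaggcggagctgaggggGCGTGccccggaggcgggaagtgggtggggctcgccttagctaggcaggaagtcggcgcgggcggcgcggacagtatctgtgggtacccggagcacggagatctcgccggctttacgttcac
LDHA held 4 sites, among them a pair of CACGTG palindromes, and was lower in iREC. HIF3A held 3 sites, all GCGTG, and was higher in iREC. The CA12 and ENO1 windows held 2 sites each, and their genes differed in opposite directions.

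Glucose is trapped in the cell by hexokinase and reshaped by glucose-6-phosphate isomerase. HK1 (chr10:69269984-69401884, plus strand), the housekeeping hexokinase bound to mitochondria, stood at 369, 382, 374 and 479 CPM in iEC and 304, 229, 215 and 291 CPM in iREC. Every iREC sample lay below every iEC sample, with iEC F standing high in its own group. The fall was 1.54-fold (log2 fold change -0.63 ± 0.15 (SE), adjusted p = 0.0166), and the call was lost without iREC D (adjusted p = 0.0595). HK2, the inducible hexokinase and a HIF target, stood at 52.8, 56.3, 43.8 and 27.4 CPM in iEC and 38.5, 31.8, 21.6 and 49.3 CPM in iREC. Its groups overlapped, since iREC F lay among the iEC values and iEC F was below all but iREC E, and it was not called (log2 fold change -0.35 ± 0.28 (SE), adjusted p = 0.401). GPI (chr19:34359480-34402413, plus strand), the isomerase, stood at 271, 288, 315 and 357 CPM in iEC and 265, 206, 206 and 232 CPM in iREC. The groups did not overlap, but iREC C lay just under iEC C. GPI was 1.35-fold lower in iREC (log2 fold change -0.44 ± 0.13 (SE), adjusted p = 0.0407), and this call was lost without iEC D, iEC E, iEC F, iREC D, iREC E or iREC F (adjusted p between 0.0573 and 0.124) and with no filter on low counts (adjusted p = 0.0738).

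Phosphofructokinase makes the committed step and has 3 subunit genes. PFKL (chr21:44300051-44327376, plus strand), the liver-type subunit, stood at 105, 122, 107 and 177 CPM in iEC and 254, 204, 224 and 193 CPM in iREC. All iREC samples were above all iEC samples, with iEC F nearest to them. PFKL rose 1.71-fold (log2 fold change 0.77 ± 0.18 (SE), adjusted p = 0.0142), a call lost without iEC C or iEC E (adjusted p between 0.0519 and 0.0571). PFKM, the muscle-type subunit, was at 119 ± 16.7 CPM in iEC and 116 ± 8.44 CPM in iREC (SD, n = 4 each) and was not called (log2 fold change -0.04 ± 0.13 (SE), adjusted p = 0.853). PFKP, the platelet-type subunit, stood at 217, 209, 227 and 207 CPM in iEC and 176, 175, 119 and 384 CPM in iREC. iREC F stood far above every other sample, while the other iREC samples lay below all iEC samples. PFKP was not called (log2 fold change -0.01 ± 0.31 (SE), adjusted p = 0.987). Without iREC F the log2 fold change of PFKP was -0.46 (adjusted p = 0.0606).

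The PFKFB enzymes make and remove fructose 2,6-bisphosphate, the strongest activator of phosphofructokinase. PFKFB2 (chr1:207034366-207081024, plus strand), the heart-type enzyme, stood at 4.94, 4.17, 4.38 and 4.29 CPM in iEC and 13.3, 19.8, 24.9 and 15.3 CPM in iREC. It was low and even across iEC and higher in all iREC samples. PFKFB2 rose 4.12-fold (log2 fold change 2.04 ± 0.23 (SE), adjusted p = 0.000331), the most of the glycolytic genes. PFKFB3, the form with the highest kinase to phosphatase ratio, stood at 64.2, 59.98, 62.03 and 70.8 CPM in iEC and 41.7, 44.7, 33.1 and 62.9 CPM in iREC. Its level in iREC F lay within the iEC range and that of the other iREC samples below it. It was not called with all samples (log2 fold change -0.49 ± 0.19 (SE), adjusted p = 0.0821), and without iREC F it was (-0.69, adjusted p = 0.00835). PFKFB4, a further hypoxia-induced form, was at 8.45 ± 1.03 CPM in iEC and 9.205 ± 4.96 CPM in iREC (SD) and was not called (log2 fold change 0.12 ± 0.36 (SE), adjusted p = 0.832). In iREC it ranged from 5.11 CPM in F to 15.6 CPM in E.

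Aldolase cleaves the phosphorylated sugar and triosephosphate isomerase interconverts the products. ALDOA (chr16:30064164-30070457, plus strand), the main form outside liver and brain, stood at 10.01, 11.9, 11.8 and 13.4 CPM in iEC and 7.79, 5.92, 6.84 and 8.45 CPM in iREC. The groups did not overlap. ALDOA was 1.62-fold lower in iREC (log2 fold change -0.70 ± 0.19 (SE), adjusted p = 0.0257), and the call was lost without iEC D, iEC E, iEC F, iREC D or iREC E (adjusted p between 0.0513 and 0.0834) and with no filter (adjusted p = 0.0568). By GENCODE 29, 42.3% of its exonic bases are shared with the same-strand gene AC093512.2, which was at 1.28 and 2.35 CPM. How reads falling in both genes were counted is not given in the sources used here, so the low level of ALDOA cannot be compared with that of other enzymes. ALDOC, the brain-type aldolase, was at 6.54 ± 0.859 CPM in iEC and 4.76 ± 1.26 CPM in iREC (SD) and was not called (log2 fold change -0.46 ± 0.25 (SE), adjusted p = 0.212). TPI1 was at 447 ± 38.5 CPM in iEC and 445 ± 38.4 CPM in iREC (SD), nearly the same level in both groups (log2 fold change -0.01 ± 0.12 (SE), adjusted p = 0.978).

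The ATP-yielding end of the pathway begins with GAPDH, the dehydrogenase often used as a reference gene. GAPDH (chr12:6533927-6538374, plus strand) stood at 2179, 2381, 2359 and 2758 CPM in iEC and 1754, 1391, 1107 and 1889.8 CPM in iREC. All iREC samples were below all iEC samples, with iREC E lowest. GAPDH fell 1.58-fold (log2 fold change -0.66 ± 0.19 (SE), adjusted p = 0.0302), a call lost without iEC D, iEC E, iEC F, iREC D or iREC E (adjusted p between 0.0501 and 0.0933). The GAPDH pseudogenes in the table, 17 in all, summed to 0.332% of its level in iEC and 0.342% in iREC. PGK1, which makes the first ATP, was at 623 ± 19.8 CPM in iEC and 524 ± 45.3 CPM in iREC (SD); the groups did not overlap, but it was not called (log2 fold change -0.25 ± 0.11 (SE), adjusted p = 0.131). DESeq2 gave PGK1 an adjusted p of 0.0492. PGAM1, the mutase, was at 453 ± 31.8 CPM in iEC and 351 ± 67.2 CPM in iREC (SD) and was not called (log2 fold change -0.37 ± 0.15 (SE), adjusted p = 0.104), though it was without iREC F (adjusted p = 0.0268).

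ENO1 (chr1:8861000-8879250, minus strand), the ubiquitous enolase, stood at 2050.2, 1986, 2059 and 2255 CPM in iEC and 1473, 1334, 1088 and 1649.8 CPM in iREC. The lowest iEC sample lay above the highest iREC sample. ENO1 fell 1.51-fold (log2 fold change -0.59 ± 0.15 (SE), adjusted p = 0.01996), a call lost without iREC D (adjusted p = 0.0658). ENO2 (chr12:6913745-6923698, plus strand), the neuronal enolase, stood at 21.8, 30.1, 25.6 and 30.1 CPM in iEC and 16.5, 19.3, 14.3 and 22.6 CPM in iREC. Its groups overlapped, with iREC F above iEC C. It was 1.48-fold lower in iREC (log2 fold change -0.57 ± 0.18 (SE), adjusted p = 0.0498), a call at the threshold that was lost without iEC D, iEC E, iEC F, iREC C, iREC D or iREC E (adjusted p between 0.0904 and 0.1198). It was also lost with DESeq2 size factors (adjusted p = 0.0518), with no filter (0.0772) and with the stricter filter (0.0518). PKM (chr15:72199029-72231822, minus strand), the pyruvate kinase gene, stood at 1323, 1354, 1617 and 1907 CPM in iEC and 854, 837, 579.7 and 1271 CPM in iREC. iREC F came close to iEC C, and iREC E was the lowest sample. PKM was 1.75-fold lower in iREC (log2 fold change -0.81 ± 0.24 (SE), adjusted p = 0.03403), which was lost without iEC E, iEC F, iREC C, iREC D or iREC E (adjusted p between 0.06299 and 0.09303). Counts per gene do not separate its M1 and M2 splice forms.

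LDHA (chr11:18394388-18408425, plus strand), whose promoter with 4 sites is printed above, encodes the lactate dehydrogenase subunit that favours lactate. It stood at 754, 658, 777 and 668 CPM in iEC and 438, 453, 305 and 615 CPM in iREC. The groups did not overlap, although iREC F came near the lowest iEC samples. LDHA was 1.58-fold lower in iREC (log2 fold change -0.66 ± 0.20 (SE), adjusted p = 0.03801), and the call was lost without iEC C, iEC D, iEC E, iEC F, iREC C, iREC D or iREC E (adjusted p between 0.0507 and 0.0929). LDHB, the subunit that favours pyruvate, was at 38.6 ± 2.92 CPM in iEC and 43.1 ± 9.56 CPM in iREC (SD) and was not called (log2 fold change 0.16 ± 0.17 (SE), adjusted p = 0.523). A stretch of 33.4% of the LDHB exonic bases is shared with the same-strand gene AC010197.2. PDK1 (chr2:172555373-172608669, plus strand), a kinase that inhibits pyruvate dehydrogenase, moved the other way from LDHA. It stood at 11.9, 10.7, 11.5 and 7.01 CPM in iEC and 18.4, 16.5, 16.8 and 21.1 CPM in iREC. The iREC samples were all above the iEC samples, and PDK1 rose 1.77-fold (log2 fold change 0.82 ± 0.20 (SE), adjusted p = 0.0159).

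**Figure D2:**
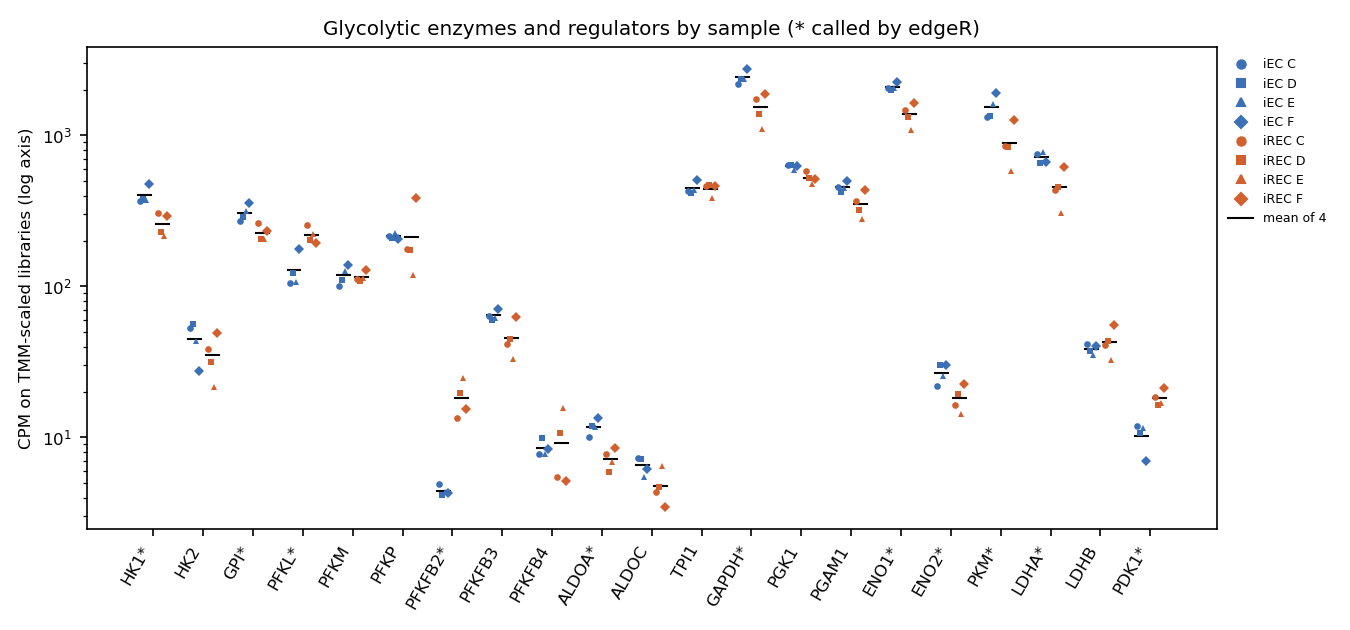
CPM of the 21 glycolytic genes on a log axis, 1 point per sample, blue for iEC and orange for iREC, with the mean of 4 samples as a bar; an asterisk marks genes called by edgeR. iREC F (orange diamond) is the highest iREC sample in 13 of the 21 genes and iREC E (orange triangle) the lowest in 13.

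Summed over the 21 genes, glycolytic RNA was 9113, 9189, 9645 and 10781 CPM in iEC and 7225, 6448, 5272 and 8318 CPM in iREC. The group means were 9682 ± 769 and 6816 ± 1284 (SD), a difference of -0.52 on the log2 scale, and the groups did not overlap. GAPDH, ENO1 and PKM made up 59.8% of the sum. When each gene counted equally, as the mean of log2 CPM, the difference was -0.17. Within iREC the sum was highest in F and lowest in E. Proliferation genes, 12 in all, summed to 1378, 1549, 713 and 322 CPM in iEC and 1271, 1256, 861 and 1569 CPM in iREC, and 0 of the 12 were called by edgeR, DESeq2 or limma-voom or had an unadjusted p under 0.05. In iEC the sample with the least proliferation RNA, F, had the most glycolytic RNA. Mural and epithelial marker RNA was highest in iREC F and in iEC F within their groups, as was the glycolytic sum. The part of these markers in the glycolytic levels was not tested.

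**Figure D3:**
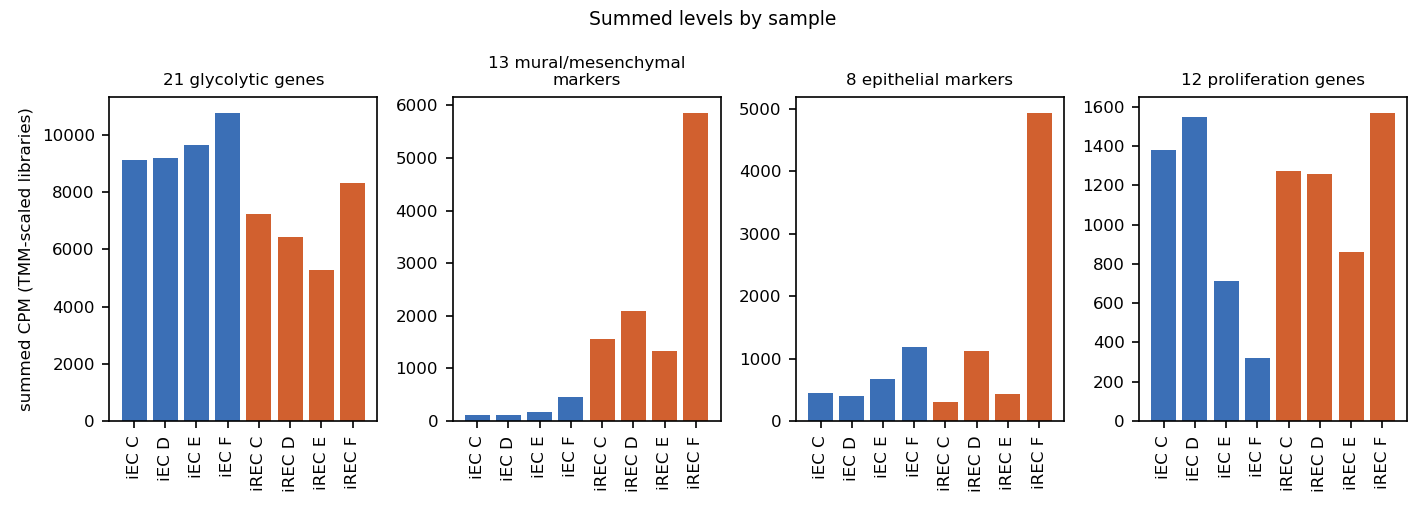
Summed CPM per sample, from 0, for the 21 glycolytic genes, 13 mural and mesenchymal markers, 8 epithelial markers and 12 proliferation genes; blue bars are iEC and orange bars iREC. Glycolytic sums were 9113 to 10781 CPM in iEC and 5272 to 8318 CPM in iREC, and iREC F was the highest iREC sample in all 4 panels.

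Of the genes for HIF alpha subunits EPAS1 and HIF3A rose, and HIF1A was not called. HIF1A stood at 417, 397, 441 and 468 CPM in iEC and 277, 368, 359 and 399 CPM in iREC. Only iREC F and the lowest iEC sample overlapped, and the log2 fold change was -0.30 ± 0.14 (adjusted p = 0.143). EPAS1 (chr2:46293667-46386703, plus strand), the alpha subunit enriched in endothelium, stood at 376, 743, 362 and 767 CPM in iEC and 1688, 1504, 1797 and 1474 CPM in iREC. iEC fell into a higher pair, D and F, and a lower pair, C and E, and all iREC samples were above both. EPAS1 rose 2.87-fold (log2 fold change 1.52 ± 0.27 (SE), adjusted p = 0.003395). Per kilobase of exon, EPAS1 averaged 76.99 and HIF1A 83.6 CPM per kb in iEC, and 221 and 68.1 CPM per kb in iREC. HIF3A (chr19:46297046-46343433, plus strand), the remaining alpha subunit, with splice forms that restrain the others, stood at 1.3, 3.67, 0.888 and 1.15 CPM in iEC and 40.2, 65.4, 96.3 and 23.3 CPM in iREC. It was low in iEC, where D was highest, and spread widely among the iREC samples, with F lowest. HIF3A rose 31.99-fold (log2 fold change 5.0 ± 0.59 (SE), adjusted p = 0.000415), the greatest rise among the 38 tested genes, and the log2 fold change was 5.65 without iEC D. ARNT, the shared beta subunit, was at 37.9 ± 1.59 CPM in iEC and 45.3 ± 3.45 CPM in iREC (SD); its groups did not overlap, but it was not called (log2 fold change 0.26 ± 0.11 (SE), adjusted p = 0.111).

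Of the 4 genes whose proteins mark or remove HIF, EGLN3 alone was called by edgeR. EGLN3 (chr14:33924231-34462774, minus strand), a prolyl hydroxylase that is itself a HIF target, stood at 1.43, 3.22, 0.118 and 0.429 CPM in iEC and 10.9, 5.64, 4.52 and 8.12 CPM in iREC. The counts behind these levels were 22, 51, 2 and 6 in iEC and 166, 79, 74 and 124 in iREC, so that iEC E was under the floor of 3 counts. Every iREC sample exceeded every iEC sample. EGLN3 rose 5.57-fold (log2 fold change 2.48 ± 0.75 (SE), adjusted p = 0.0395), a call lost without iEC C, iEC F, iREC C, iREC D, iREC E or iREC F (adjusted p between 0.0542 and 0.08601). Without iEC D, the highest iEC sample, the log2 fold change was 3.46 (adjusted p = 0.00971). EGLN1, the main oxygen sensor of the family, was at 63.7 ± 4.45 CPM in iEC and 72.2 ± 8.33 CPM in iREC (SD) and was not called (log2 fold change 0.18 ± 0.12 (SE), adjusted p = 0.302). EGLN2 was at 13.7 ± 2.84 CPM in iEC and 13.3 ± 3.77 CPM in iREC (SD) and was not called (log2 fold change -0.05 ± 0.24 (SE), adjusted p = 0.909). RAB4B-EGLN2 shares 30.6% of its exonic bases on the same strand. VHL, the substrate receptor of the ubiquitin ligase, was at 59.1 ± 7.32 CPM in iEC and 60.4 ± 6.34 CPM in iREC (SD) and was not called (log2 fold change 0.03 ± 0.13 (SE), adjusted p = 0.881).

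The sum over the 8 HIF regulators was 967, 1316, 975 and 1422 CPM in iEC and 2208, 2124, 2446 and 2107 CPM in iREC, a log2 difference of 0.94 with no overlap. Over both groups together, EPAS1, HIF1A and EGLN1 made up 91.3% of it. From iEC to iREC the mean sum rose from 1170 to 2221 CPM, and EPAS1 alone from 562 to 1616 CPM. The rise of the sum was thus close to that of EPAS1. Mean HIF1A fell from 431 to 351 CPM, and mean EGLN1 moved only from 63.7 to 72.2 CPM.

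Among the other hypoxia genes STC1 and NDRG1 fell. STC1, a secreted glycoprotein gene on chromosome 8, stood at 189, 139, 427 and 263 CPM in iEC and 1.31, 1.14, 0.977 and 1.77 CPM in iREC. It was abundant in every iEC sample and close to 1 CPM in every iREC sample. The counts in iREC were 20, 16, 16 and 27, above the floor of 3. STC1 fell 195-fold (log2 fold change -7.61 ± 0.44 (SE), adjusted p = 1.57e-05), the greatest difference among the 38 tested genes. STC2, its paralog, stood at 52.3, 16.7, 56.9 and 53.4 CPM in iEC and 2.16, 19.3, 7.39 and 33.01 CPM in iREC. iEC D was far below the other iEC samples and within the iREC range. STC2 was not called with all samples (log2 fold change -1.54 ± 0.70 (SE), adjusted p = 0.1399), and it was without iREC F (-2.23, adjusted p = 0.0402). NDRG1, a stress-response gene on chromosome 8 long used as a hypoxia marker, stood at 98.2, 52.4, 90.03 and 89.3 CPM in iEC and 33.6, 36.1, 34.1 and 30.7 CPM in iREC. The iREC values were tightly grouped below the lowest iEC sample, D. NDRG1 fell 2.45-fold (log2 fold change -1.29 ± 0.19 (SE), adjusted p = 0.00131).

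The carbonic anhydrases, which buffer acid at the cell surface, were scarce. CA9, among the most HIF-dependent genes known, had 0, 5, 2 and 2 counts in iEC and 2, 12, 8 and 12 counts in iREC, too few for the test. Of its exonic bases 38.5% overlap ARHGEF39 on the opposite strand, a gene at 3.08 and 7.96 CPM, so these few reads cannot be assigned if counting ignored the strand. CA12 (chr15:63321378-63382161, minus strand), a second membrane-bound form, stood at 1.04, 0.885, 0.7103 and 0.286 CPM in iEC and 0.981, 6.78, 2.14 and 13.6 CPM in iREC. iREC C lay within the iEC range, and iREC F, the sample with the most epithelial, mural and pluripotency marker RNA, was the highest. CA12 rose 7.93-fold (log2 fold change 2.99 ± 0.79 (SE), adjusted p = 0.0232), a call lost without iEC E, iEC F or iREC D (adjusted p between 0.05505 and 0.0626) and with limma-voom (adjusted p = 0.115). Without iREC F the log2 fold change of CA12 was 2.15 (adjusted p = 0.0447). Within iREC, CA12, the summed epithelial markers and the summed pluripotency markers had the same order of samples (F, D, E, C). The part of the markers in CA12 was not tested.

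The remaining genes act in mitophagy, growth control and chromatin. BNIP3, a mitophagy receptor, was at 69.3 ± 3.73 CPM in iEC and 51.6 ± 9.87 CPM in iREC (SD); its groups did not overlap, but it was not called (log2 fold change -0.42 ± 0.15 (SE), adjusted p = 0.0708). BNIP3L, its paralog, was at 59.3 ± 12.1 CPM in iEC and 51.9 ± 11.01 CPM in iREC (SD) and was not called (log2 fold change -0.19 ± 0.20 (SE), adjusted p = 0.516). KDM3A (chr2:86440647-86492716, plus strand), a histone H3 lysine 9 demethylase, stood at 41.2, 45.6, 32.97 and 35.1 CPM in iEC and 44.3, 62.6, 71.02 and 52.1 CPM in iREC. The groups overlapped, with iREC C below iEC D. KDM3A rose 1.48-fold (log2 fold change 0.57 ± 0.17 (SE), adjusted p = 0.0409), a call lost without iEC C, iEC E, iEC F, iREC D or iREC E (adjusted p between 0.0746 and 0.1101), with library size only (adjusted p = 0.0566) and with no filter (0.0584). DDIT4, an inhibitor of mTORC1, stood at 6.501, 5.56, 5.15 and 5.01 CPM in iEC and 7.98, 16.3, 18.1 and 5.44 CPM in iREC. iREC D and E were high while iREC F lay within the iEC range. It just missed the threshold (log2 fold change 1.10 ± 0.37 (SE), adjusted p = 0.0569). DDIT4 was called without iREC F (1.34, adjusted p = 0.00997), without iREC C (0.0488) and by DESeq2 (0.0181). DDIT4-AS1 overlaps 41.2% of its exonic bases on the opposite strand. ANKRD37 was at 1.84 ± 0.595 CPM in iEC and 1.48 ± 0.558 CPM in iREC (SD) and was not called (log2 fold change -0.30 ± 0.38 (SE), adjusted p = 0.592), with 35.2% of its exonic bases opposite UFSP2.

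**Figure D4:**
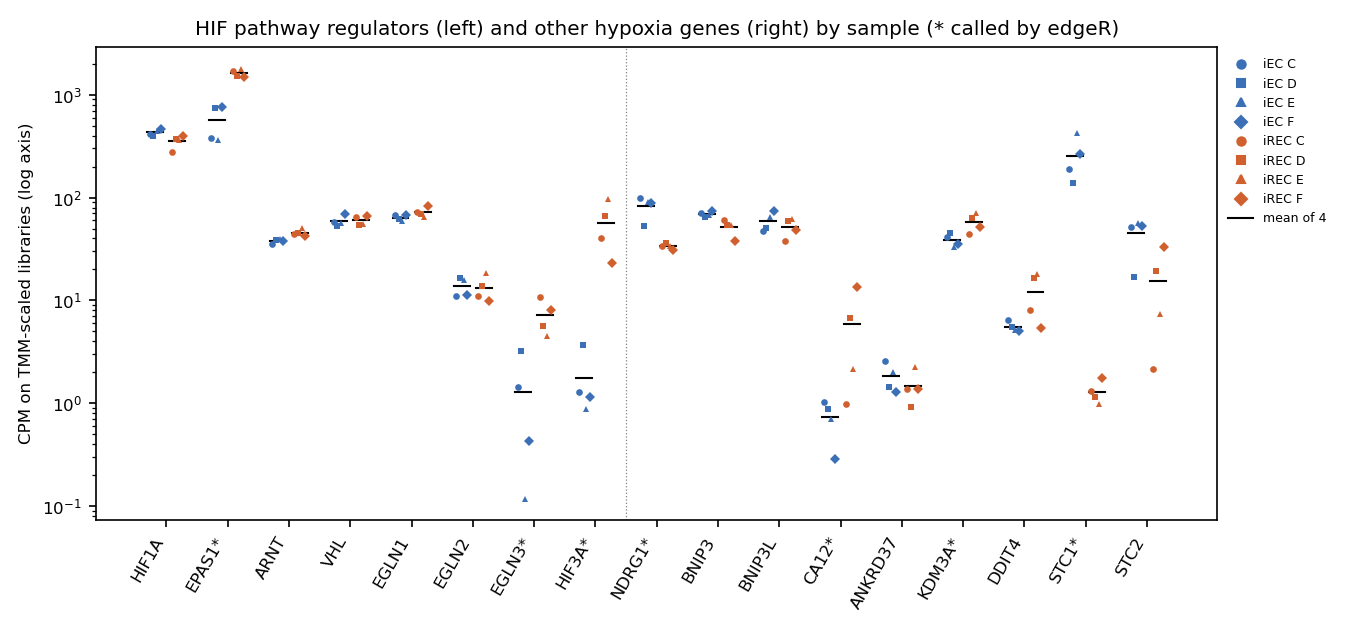
CPM of the 8 HIF regulators (left of the dotted line) and the 9 tested other hypoxia genes (right) on a log axis, 1 point per sample, with the mean of 4 samples as a bar; blue is iEC, orange is iREC and an asterisk marks genes called by edgeR. EPAS1, EGLN3 and HIF3A are higher in every iREC sample, and NDRG1 and STC1 lower.

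The sum over the 10 other hypoxia genes was 509, 378, 748 and 595 CPM in iEC and 190.2, 257, 253 and 225 CPM in iREC, a log2 difference of -1.24 with no overlap. Over both groups together, STC1, BNIP3 and NDRG1 made up 62.5% of this sum. From iEC to iREC the mean sum fell from 557 to 231 CPM, and STC1 alone from 255 to 1.3 CPM. Most of the fall of the sum was thus that of STC1. Mean NDRG1 fell from 82.5 to 33.6 CPM and mean BNIP3 from 69.3 to 51.6 CPM. Of the 9 tested genes, 3 had a positive log2 fold change.

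Families with several genes were also compared by the share that 1 paralog held of its family, on CPM per kilobase of the deposited gene length. EPAS1 held 38.9, 56.9, 36.7 and 53.6% of HIF1A plus EPAS1 in iEC and 81.1, 74.3, 77.9 and 72.3% in iREC. The share was 46.5% ± 10.2 (SD) in iEC and 76.4% ± 3.91 (SD) in iREC, and the groups did not overlap. LDHB held 10.3, 10.5, 8.62 and 11.2% of the lactate dehydrogenase pair in iEC and 16.2, 16.5, 18.2 and 15.9% in iREC. Its share averaged 10.2% ± 1.09 (SD) in iEC and 16.7% ± 1.04 (SD) in iREC, again with no overlap. LDHB itself was not called (38.6 and 43.1 CPM), while mean LDHA fell from 714 to 453 CPM. PFKFB3 held 85.2% ± 1.64 (SD) in iEC and 68.9% ± 12.8 (SD) in iREC of the PFKFB2, PFKFB3 and PFKFB4 level, with iREC E lowest at 52.05%. EGLN3 held 1.57% ± 1.66 (SD) in iEC and 7.57% ± 2.69 (SD) in iREC of the EGLN level. STC2 held 10.9% ± 3.81 (SD) in iEC and 80.3% ± 18.8 (SD) in iREC of the stanniocalcin pair, with iREC C at 52.8% and the other iREC samples at 83.7% or more. In an exact two-sided permutation test over samples each of these 5 shares gave p = 0.0286, the smallest value that 70 assignments allow. Adjusted over the 11 shares tested, these exact permutation values became 0.0629, so 0 of the 11 passed the threshold. With 4 samples per group, 5 fully separated shares among 11 could not have passed, so the adjusted test could not decide on them. The other 6 shares overlapped between the groups: HK2, PFKP, PFKM, ALDOC, ENO2 and BNIP3L, with exact permutation p between 0.2 and 0.857. The levels of LDHB, ALDOA and EGLN2 rest on an unknown rule for reads shared with overlapping genes, so the LDHB, ALDOC and EGLN3 shares may be off in both groups. ENO2 held only 1.56% ± 0.227 (SD) in iEC and 1.59% ± 0.168 (SD) in iREC of the enolase pair.

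**Figure D5:**
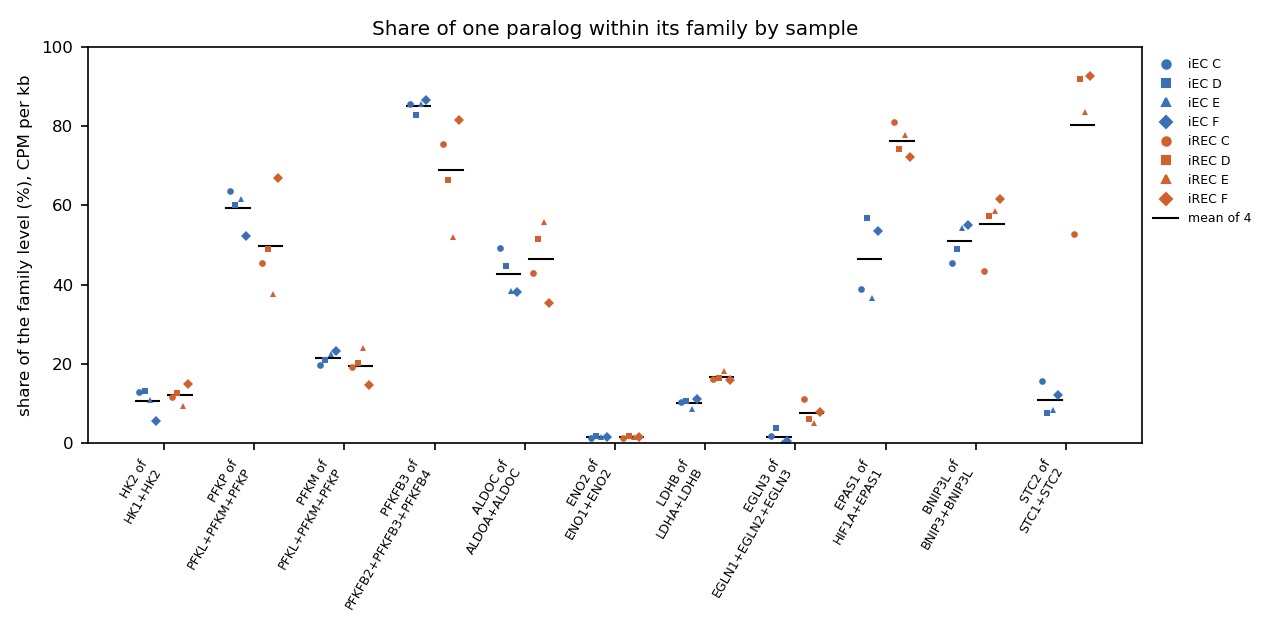
Share of 1 paralog in its family (percent of CPM per kilobase) for 11 shares, 1 point per sample with the mean of 4 as a bar; blue is iEC and orange is iREC. The groups separate for PFKFB3, LDHB, EGLN3, EPAS1 and STC2 and overlap for the other 6.

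Genes around these steps were taken from further lists. The counts in each list stand beside 25.0% of all 15330 tested genes called, 13.2% higher and 11.7% lower. Without iREC F, 4214 of all 15783 genes tested were called. Without iREC F the called genes numbered 4 for other glycolysis, 5 for pyruvate entry and use, and 3 for the pentose and serine branches. They numbered 5 for glycogen, 4 for other HIF regulators and 17 for other hypoxia targets. The list of other glycolysis genes held 12 tested genes, of which 2 were called higher and 1 lower, with a median log2 fold change of 0.02. The one that fell was PGM2L1, a sugar bisphosphate synthase, from 26.4 ± 5.67 to 12.4 ± 1.78 CPM (log2 fold change -1.09 ± 0.19 (SE), adjusted p = 0.00313). The muscle enolase ENO3 (log2 fold change 0.94 ± 0.25 (SE), adjusted p = 0.0227) and the gluconeogenic enzyme FBP1 (log2 fold change 2.76 ± 0.70 (SE), adjusted p = 0.0192) were the 2 that rose. ENO3 lost its call without iEC C, iEC D, iREC D or iREC E (adjusted p between 0.0562 and 0.0681) and FBP1 without iEC E (adjusted p = 0.0578).

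The list for the entry of pyruvate into mitochondria and its use there held 14 tested genes, with 3 called higher and 1 lower and a median of -0.14. PDK4, a pyruvate dehydrogenase kinase like PDK1, stood at 0, 0.948, 0.0592 and 0.358 CPM in iEC and 18.4, 66.5, 73.1 and 21.6 CPM in iREC. It was under the floor of 3 counts in iEC C and E and rose to high levels in all iREC samples (log2 fold change 7.01 ± 0.87 (SE), adjusted p = 0.000516; 8.33 without iEC D). PDK2, a further kinase of the family, rose 1.82-fold (log2 fold change 0.86 ± 0.24 (SE), adjusted p = 0.02597), from 7.18 ± 2.12 to 13.04 ± 1.38 CPM (SD), a call lost without iEC C, iEC D, iEC E, iREC D or iREC E (adjusted p between 0.0652 and 0.0787). PDP1, the phosphatase that opposes these kinases, stood at 123, 94.3, 126 and 137 CPM in iEC and 42.2, 29.8, 31.3 and 23.7 CPM in iREC and fell 3.78-fold (log2 fold change -1.92 ± 0.19 (SE), adjusted p = 0.000191). PDHB, a subunit of pyruvate dehydrogenase itself, rose 1.82-fold (log2 fold change 0.86 ± 0.11 (SE), adjusted p = 0.000663). The remaining kinase gene PDK3 (log2 fold change 0.11 ± 0.32 (SE), adjusted p = 0.828) and phosphatase gene PDP2 (log2 fold change -0.44 ± 0.18 (SE), adjusted p = 0.0987) were not called.

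Of the pentose phosphate and serine branch genes, 12 tested, edgeR called 0 higher and 2 lower, with a median of -0.15. At an unadjusted p under 0.05 1 was higher, and DESeq2 and limma-voom called 0 higher. The genes called lower were RPIA, which makes ribose 5-phosphate (1.91-fold lower, log2 fold change -0.94 ± 0.15 (SE), adjusted p = 0.00188), and PGD, a dehydrogenase of the same pathway (1.49-fold lower, log2 fold change -0.57 ± 0.18 (SE), adjusted p = 0.0436). The call of PGD was lost without iEC E, iEC F, iREC D, iREC E or iREC F (adjusted p between 0.0664 and 0.124). Without iEC D the list had 4 called genes, and without iEC E, iREC D or iREC E it had 1. Of 14 tested glycogen genes 3 were called higher and 1 lower, with a median of -0.08. PPP1R3B, which targets a phosphatase to glycogen, rose 4.95-fold from 16.8 ± 4.898 to 83.1 ± 22.4 CPM (log2 fold change 2.31 ± 0.26 (SE), adjusted p = 0.000358). PHKA2, a phosphorylase kinase subunit, rose 1.91-fold (log2 fold change 0.94 ± 0.29 (SE), adjusted p = 0.0409), and the branching enzyme GBE1 fell 1.61-fold (log2 fold change -0.69 ± 0.16 (SE), adjusted p = 0.0128). The call of PHKA2 was lost without iEC E, iEC F, iREC C, iREC D, iREC E or iREC F (adjusted p between 0.06704 and 0.0887), and the list had 2 called genes without iEC F, compared with 4. The third gene that rose was PYGM, the muscle glycogen phosphorylase, at 0.2601, 0.569, 0.7103 and 0.215 CPM in iEC and 1.05, 1.78, 1.83 and 12.4 CPM in iREC. Its log2 fold change was 3.24 (adjusted p = 0.0245) with all samples and 1.79 (0.0295) without iREC F, its highest sample, and the call was lost without iEC C or iEC F (adjusted p between 0.0612 and 0.0667).

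Other HIF regulators gave 17 tested genes, 1 called higher and 3 lower, with a median of -0.37, beside 13.2% and 11.7% of all genes. WSB1, a ubiquitin ligase adaptor reported to act on VHL, rose 2.17-fold (log2 fold change 1.11 ± 0.28 (SE), adjusted p = 0.0185). CUL2 (log2 fold change -0.41 ± 0.10 (SE), adjusted p = 0.01602) and ELOC (log2 fold change -0.52 ± 0.16 (SE), adjusted p = 0.04498), which build the ligase with VHL, were lower in iREC, as was MXI1, a repressor of MYC targets that is also among the hypoxia targets (log2 fold change -1.02 ± 0.29 (SE), adjusted p = 0.0312). MXI1 was below 10 CPM and lost its call in every fit that left out a sample except that without iEC D (adjusted p between 0.0504 and 0.088). WSB1 lost its call without iEC F or iREC D (adjusted p between 0.05004 and 0.0545), CUL2 without iREC D (adjusted p = 0.0593) and ELOC without iEC C, iEC E, iEC F, iREC C, iREC D or iREC E (adjusted p between 0.0804 and 0.109). Counts in this list changed when a sample was left out. There edgeR called 0 genes without iREC D (6 at an unadjusted p under 0.05), 1 without iEC F and 2 without iEC C, iEC E, iREC C or iREC E. Over all genes these fits also called fewer, between 2660 (without iREC D) and 3675 (without iEC F), compared with 3829 with all samples. Other hypoxia targets gave 38 tested genes with 8 called higher and 7 lower, a median of 0.07. The 3 greatest rises by the naming rule were ANGPTL4, a lipoprotein lipase inhibitor (9.96-fold, log2 fold change 3.32 ± 0.46 (SE), adjusted p = 0.001004), PLOD2, a collagen lysyl hydroxylase (5.73-fold, log2 fold change 2.52 ± 0.15 (SE), adjusted p = 1.75e-05), and AK4, a mitochondrial adenylate kinase (5.57-fold, log2 fold change 2.48 ± 0.28 (SE), adjusted p = 0.000328). The 3 greatest falls by the same rule, which leaves out MXI1 for its low level, were CXCR4, a chemokine receptor (4.06-fold lower, log2 fold change -2.02 ± 0.39 (SE), adjusted p = 0.00503), GBE1, already given above, and INSIG2, a regulator of sterol synthesis (1.57-fold lower, log2 fold change -0.65 ± 0.16 (SE), adjusted p = 0.0175). INSIG2 was not called without iREC D (adjusted p = 0.0566). Called genes thus lay in both directions in this list, as they did among the 10 other hypoxia genes.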

How the data were processed

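Poly-T selected RNA from 8 samples was sequenced. Per the submitters' processing notes, reads were processed with fastp and aligned with HISAT2 2.0.5 to hg38. The counting program, its strand setting and its rule for overlapping genes are not given in the sources used here. The authors deposited 1 table of 30386 genes with raw counts per gene and sample, a normalized signal (counts divided by a size factor), FPKM, log2 fold changes and p-values, per the file headers. All 30386 identifiers matched GENCODE 29 with the same start and end, and coordinates are 1-based on GRCh38 (hg38).

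Tests used the deposited counts. Genes were kept by filterByExpr, libraries scaled by TMM, and groups compared with edgeR 4.0.16 (quasi-likelihood F-test, all 8 samples, group as the only term, R 4.3.3). Benjamini-Hochberg adjustment covered all 15330 tested genes, with calls made below 0.05. The SE of a log2 fold change came from the coefficient and the F statistic, and a log2 CPM mean used a prior count of 2. FPKM columns served only to recompute shares. The procedure was tested on simulated data with known changes. Those changes were larger than the falls of glycolytic enzymes given here, so that test does not bear on them. Floors cover counting error only.

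The genes and lists were chosen with earlier results of these data known, so their counts are descriptions and carry no test of a list. Named were all 39 genes and, of each neighbouring list, up to 3 called genes in each direction reaching 10 CPM on average in either group; ENO3, FBP1, PYGM, MXI1, PDK3, PDP2, ESAM, CDH5, ZFP42, NANOG, TDGF1, PTPRC, HBE1 and SPI1 lie outside this rule and were picked with their values known. The settings varied were the scaling (size factors of DESeq2, upper quartiles, or plain library size), the filter (none, or a stricter one asking for 1 CPM throughout a group plus an average count of 50), the test (DESeq2 1.42.0, or voom in limma 3.58.1), a block for the replicate letter, and the samples, of which each was left out once.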

Additional observations from a re-analysis of the deposited data

Results flagged for a closer look

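In 104 groups of 4 samples, 4 values lay so far from the other 3 that the gap exceeded Dixon's 95% limit. Chance alone gives about 5.2 such values in as many groups. HK1 was at 479 CPM in iEC F and at 369 to 382 CPM in the other iEC samples. TPI1 was at 388 CPM in iREC E and at 459 to 469 CPM in the other iREC samples. HIF3A was at 3.67 CPM in iEC D and at 0.888 to 1.30 CPM in the other iEC samples. STC2 was at 16.7 CPM in iEC D and at 52.3 to 56.9 CPM in the other iEC samples.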

How the results depend on the processing

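Over the log2 fold changes of the 38 tested genes in every alternative, 512 values kept their direction and their side of the threshold, 65 lost a call, 7 gained one and 22 changed sign; the cause was not tested. Sign changes were limited to uncalled genes near 0. PFKP was at 0.0082 with upper quartile scaling and 0.0096 with the stricter filter. PFKFB4 was at -0.0199 with limma-voom. TPI1 was at 0.025, 0.0020 and 0.018 with upper quartile scaling, library size only and the stricter filter. With 1 sample left out, log2 fold changes ranged from -0.12 to 0.040 for PFKM, -0.46 to 0.19 for PFKP, -0.25 to 0.32 for PFKFB4, -0.048 to 0.056 for TPI1, -0.031 to 0.12 for VHL and -0.24 to 0.071 for EGLN2. The differences in share ranged from -0.196 to 2.39 percentage points for HK2 and from -0.0620 to 0.119 for ENO2.

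Called glycolytic genes ranged from 3 (without iREC D) to 12 (without iREC F), and those lower in iREC from 0 to 9. Called other hypoxia genes ranged from 2 to 6. Those higher ranged from 0 (without iEC E, iEC F or iREC D, or with the replicate block) to 3. Over all genes the calls ranged from 2660 (without iREC D) to 4664 (DESeq2). Without iREC D edgeR called 0 glycolytic genes lower, and 8 were lower at an unadjusted p under 0.05; without iEC E it called 0 other hypoxia genes higher, and 3 were at that level. No filter gave 5 glycolytic genes lower. Of the other hypoxia genes, library size only, no filter, the stricter filter and limma-voom called 1 higher. Equal weight per gene moved the summed differences to -0.17 (glycolytic), 1.19 (HIF regulators) and -0.65 (other hypoxia genes).

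The labels do not say what a letter shares. Correlations of deviations between same-lettered samples were 0.168 for C, -0.079 for D, 0.029 for E and 0.25 for F. Those between different letters lay between -0.221 (iEC D with iREC F) and 0.178 (iEC D with iREC C), so only F lay above that range. These values do not settle whether letters are paired. With the letter as a replicate block, 13 genes were called, all among the 18: 8 glycolytic genes (3 higher, 5 lower), 3 HIF regulators and 2 other hypoxia genes, 0 of them higher by edgeR (3 at an unadjusted p under 0.05), and PFKFB4 was at -0.021. The calls lost were GPI (adjusted p = 0.0825), ALDOA (0.0513), LDHA (0.0653), CA12 (0.0978) and KDM3A (0.0751). Over all 15330 genes tested, the block fit called 3334 (1830 higher, 1504 lower), compared with 3829 without the block.

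CA9, ANKRD37, CA12, EGLN3, HIF3A, STC1, PFKFB2 and ALDOC averaged under 5 CPM in at least 1 group. The part of depth in the spread of their values was not tested.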
